A study of Mus musculus with 12 samples.

Results

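The genes that make, break down and sense prostaglandin E2 were followed in 2 mouse mammary tumour lines with and without a knockout labelled sgNEDD4. The members are the 9 genes Pla2g4a, Ptgs1, Ptgs2, Ptges, Ptges2, Hpgd, Ptgr1, Ptger2 and Ptger4, taken by symbol from the 56691 genes listed for each line, and all 9 were found. Prostaglandin E2 is made in steps: cytosolic phospholipase A2 (Pla2g4a) frees arachidonic acid from membranes, a cyclooxygenase (Ptgs1 or Ptgs2) turns it into prostaglandin H2, and a terminal synthase (Ptges or Ptges2) turns that into prostaglandin E2. Ptgs1 is usually expressed at a steady level, while Ptgs2 is induced by growth factors and inflammatory signals and is known for its high expression in many carcinomas. Prostaglandin E2 acts on neighbouring cells through receptors that include Ptger2 (EP2) and Ptger4 (EP4), both coupled to cyclic AMP, and is inactivated by the dehydrogenase Hpgd and by the reductases that follow it.

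The libraries hold messenger RNA of cultured 4T1 and EMT6 cells, transplantable mammary carcinoma lines derived from mice. Each line was given as control cells (genotype WT) and as knockout cells (KO, sgNEDD4, the notation for a guide RNA against the ubiquitin ligase gene Nedd4), with 3 libraries in each of the 4 groups and 12 libraries in all. All cells grew in the same serum-containing medium with no other agent named. The labels do not say where the guide cuts, whether the KO cells are 1 clone or a pool, or whether the 3 libraries of a group come from separate cultures, so p-values measure the spread between these libraries, which may be technical.

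Libraries held 13705612 to 19761604 counts. Nedd4, the targeted gene, stood at 94.4, 97.6 and 93.5 FPKM (fragments per kilobase of exon, scaled to the library's total count, so that levels can be compared between genes) in the 4T1 controls against 24.7, 24.9 and 25.3 in the 4T1 KO libraries, and at 116.5 to 122.5 against 11.5 to 12.1 in EMT6, so the libraries follow their labels. In 4T1, the KO libraries detected 20937 to 21264 genes against 18836 to 19017 in controls, and the nuclear RNA Malat1 stood at 478.6 to 560.2 CPM (counts relative to the sum of each library, with no length scaling) against 69.3 to 155.0. In EMT6, Malat1 stood at 157.9 to 200.2 in KO against 188.7 to 449.6 in controls. Of 10 epithelial markers, 8 had a mean of at least 1 FPKM in both 4T1 groups, against 4 in EMT6 controls and 2 in EMT6 KO. Their sum was 2004.7 to 2088.3 FPKM in 4T1 controls and 1465.5 to 1546.5 in 4T1 KO. In EMT6 the sum was 351.3 to 417.7 in controls and 379.0 to 392.7 in KO. Most of that EMT6 sum was Krt8, at a mean of 293.3 FPKM in controls and 351.8 in KO. Of the 6 epithelial markers tested in EMT6, 4 were lower in KO and 1 higher (edgeR adjusted p under 0.05, median log2 change -1.41). Of the 8 tested in 4T1, 5 were lower in KO and 0 higher by the same test (median -0.36). Among all genes tested, 28.2% were lower and 27.9% higher in EMT6, and 29.0% lower and 28.0% higher in 4T1. Fibroblast markers summed to 4.88 to 5.83 FPKM in 4T1, 352.0 to 381.8 in EMT6 controls and 513.1 to 583.6 in EMT6 KO, with Lum at 0 in all groups. Most of the EMT6 sum was Col1a1 and Col1a2, at means of 164.7 and 198.6 FPKM in controls and 202.0 and 323.0 in KO. Nearly all of the 4T1 sum was Pdgfra. In EMT6, Pdgfra stood at 5.55 in controls and 4.83 in KO, and Pdgfrb at 0.95 and 9.78. Summed leukocyte markers stood at 24.2 to 29.3 FPKM in 4T1, 28.6 to 34.4 in EMT6 controls and 16.3 to 18.1 in EMT6 KO. The T-cell gene Cd3e was at 0 in all 12 libraries and the pan-leukocyte gene Ptprc at 0 in EMT6. Most of the leukocyte sum was Cd68 and Cd14. In EMT6, Cd68 stood at a mean of 19.4 FPKM in controls and 7.39 in KO, and Cd14 at 10.9 and 8.81. Csf1r went the other way, at 0.51 and 1.04. Endothelial markers summed to 19.3 to 23.8 FPKM in 4T1 and 1.05 to 1.32 in EMT6. Nearly all of the 4T1 sum was Eng, at a mean of 19.6 FPKM in controls and 21.9 in KO. It was the 1 of 5 endothelial markers with a mean of at least 1 FPKM, in 4T1 as in EMT6. The part that these differences have in the results was not tested, and fewer cells of a type and less RNA per cell cannot be told apart in bulk libraries.

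In the controls, the machinery for prostaglandin E2 was transcribed in both lines, and the genes that were measurable were higher in EMT6. Ptgs2 had the highest FPKM of the 9 members in every one of the 12 libraries, and its group means ranked at percentile 98.9 of the genes above 0 in 4T1 controls and 99.5 in EMT6 controls. Of the 9 members, 7 had enough counts to be tested, and all 7 were called higher in EMT6 controls than in 4T1 controls. A gene is called where edgeR's quasi-likelihood test gives a Benjamini-Hochberg adjusted p under 0.05 over all genes tested. Of all 14301 genes tested between the controls, 74.7% were called, with 37.5% higher and 37.2% lower in EMT6. The control libraries of the lines did not overlap in FPKM for any of the 7, nor for 74.1% of all genes tested. The difference was largest for Ptgs1, at 3.71 ± 0.08 (log2, SE), and smallest for Pla2g4a, at 0.46 ± 0.08. In order of mean FPKM, 4T1 controls gave Ptgs2 (150.3), Pla2g4a (28.8), Ptges (10.0), Ptgr1 (5.62), Ptgs1 (5.61), Ptges2 (2.84) and Ptger4 (0.96), with the libraries of Ptgr1 and Ptgs1 overlapping. EMT6 controls gave Ptgs2 (271.7), Ptgs1 (72.6), Pla2g4a (38.8), Ptges (34.9), Ptgr1 (11.98), Ptges2 (4.65) and Ptger4 (3.68), with Pla2g4a and Ptges overlapping. The remaining pair, Hpgd and Ptger2, lay at or near 0.

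**Figure D1:**
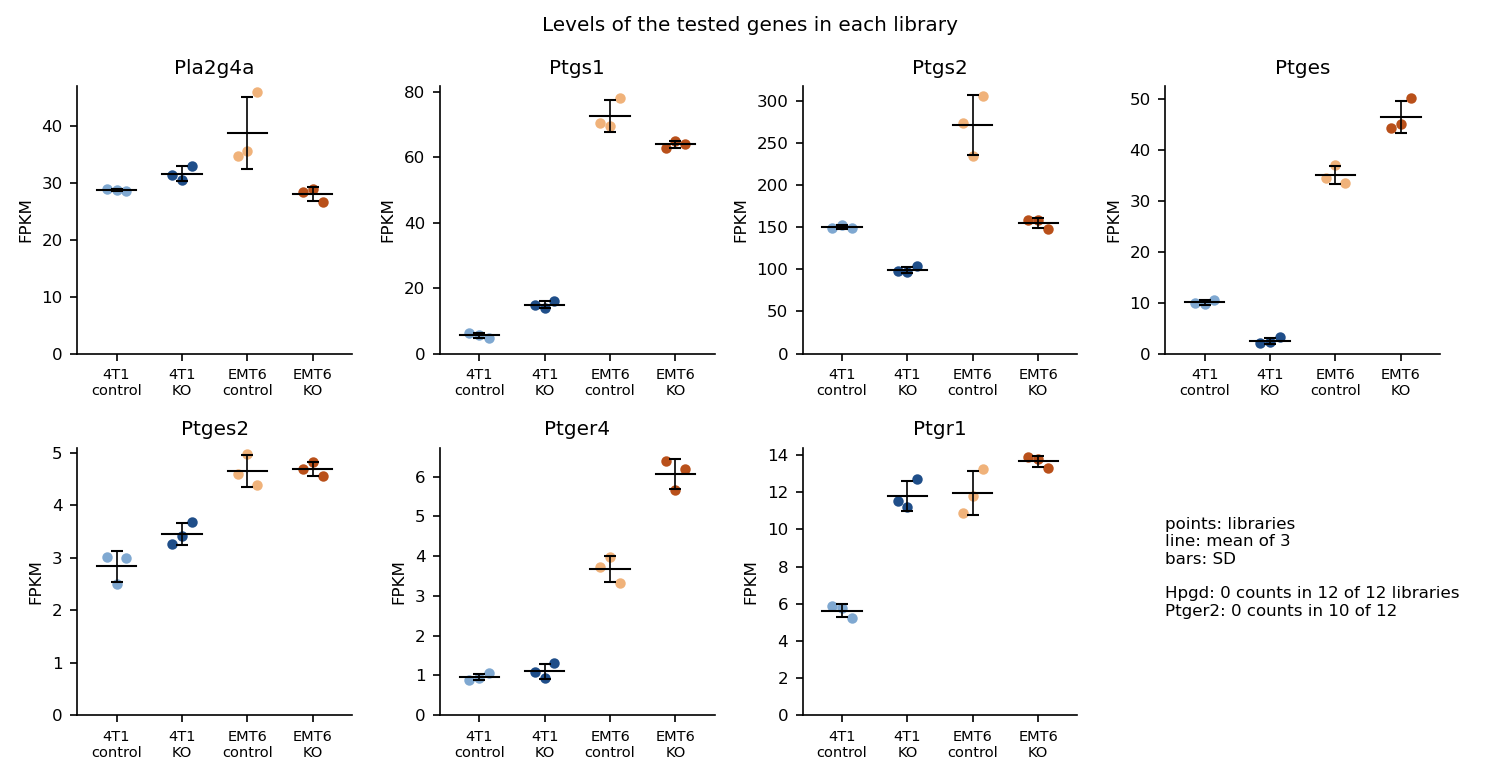
FPKM of the 7 tested members in each of the 12 libraries (points), by line and group, with the group mean and SD as lines. Ptgs2 is the highest member in every library and lower in KO than in control in both lines, while Ptgs1 and Ptges move in opposite directions in the lines and a note gives the libraries with 0 counts of Hpgd and Ptger2.

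Knockout against control gave a different member pattern in each line. In 4T1, 4 of the 7 tested members were called: Ptgs1 and Ptgr1 were higher in KO, and Ptgs2 and Ptges were lower. In EMT6, 5 of the 7 were called: Ptges and Ptger4 were higher, and Ptgs2, Pla2g4a and, by a small margin, Ptgs1 were lower. These counts are to be read against all genes, of which 57.0% of 13313 were called in 4T1 (28.0% higher, 29.0% lower) and 56.0% of 12890 in EMT6 (27.9% higher, 28.2% lower), so the number of members called is not itself a result about them. For 6 of the 7 tested members in each line the 3 KO and 3 control libraries did not overlap in FPKM, against 61.6% of all tested genes in 4T1 and 62.3% in EMT6. FPKM is scaled by total counts, and that scaling alone put the median log2 change of all 4T1 genes at 0.08. In the main 4T1 fit that median was 3e-04, so small 4T1 gaps in FPKM are to be read with the tests. Ptgs1 and Ptges were called in opposite directions in the lines, as were 19.6% of the 12006 genes tested in both, and Ptgs2 was the 1 member called lower in both, as were 7.85% of genes. Of the members, 0 were called higher in both, as were 7.05% of genes.

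**Figure D2:**
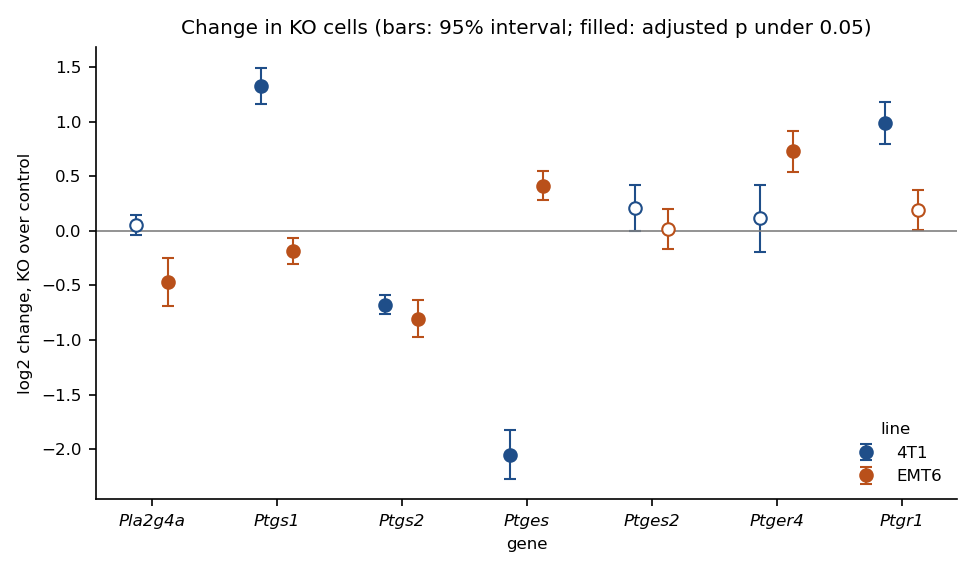
Log2 change of the 7 tested members, KO over control, in 4T1 and EMT6, with the 95% interval of edgeR's quasi-likelihood fit as bars and filled points where the adjusted p is under 0.05. Ptgs2 lies at -0.68 and -0.80, while Ptges lies at -2.05 in 4T1 and 0.41 in EMT6.

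The inducible cyclooxygenase Ptgs2 was lower in KO cells of both lines. In 4T1, the 3 control libraries gave 148.8, 152.6 and 149.5 FPKM and the KO libraries 97.7, 96.5 and 103.5. In EMT6, the controls gave 274.1, 234.8 and 306.3 FPKM and the KO libraries 158.5, 159.3 and 148.1. Every KO library lay below every control of its line, and the EMT6 KO libraries reached levels near those of the 4T1 controls. The log2 change was -0.68 ± 0.04 in 4T1 (SE, edgeR adjusted p = 3.10e-12) and -0.80 ± 0.08 in EMT6 (adjusted p = 8.94e-07), which are 1.60-fold and 1.75-fold lower. The difference between the 2 changes was -0.12 with a 95% interval of -0.31 to 0.07 (adjusted p = 0.290). Without EMT6 control replicate 2, the lowest of the EMT6 controls, that difference was -0.21 and passed the threshold (adjusted p = 0.0196, in a range of 0.0196 to 0.886 over the alternatives). Even after the fall, Ptgs2 stayed the highest member, at percentile 98.5 of genes above 0 in 4T1 KO and 98.9 in EMT6 KO.

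The deposited coordinates place Ptgs2 on chromosome 1 at 149975782 to 149983978 (plus strand), with no gene overlapping it. These coordinates are not those of GRCm38 and are given as deposited, with no build. The promoter windows of both cyclooxygenases and of Ptges are shown so that the letters beside the start of Ptgs2, lower in both lines, can be compared with those of the 2 members called in opposite directions. They come from RefSeq on GRCm38.p6, span 250 bases before to 50 after the annotated start, run 5′ to 3′ on the gene's strand, and carry capitals where a searched motif matched.

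Ptgs2 (chr1:150099781-150100080, plus strand): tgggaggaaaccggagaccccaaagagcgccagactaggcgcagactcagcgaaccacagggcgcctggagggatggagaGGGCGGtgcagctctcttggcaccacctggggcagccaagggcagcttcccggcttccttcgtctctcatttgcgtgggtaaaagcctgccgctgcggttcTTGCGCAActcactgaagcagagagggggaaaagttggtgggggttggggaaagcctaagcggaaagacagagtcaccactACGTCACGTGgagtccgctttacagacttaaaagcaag
Ptgs1 (chr2:36230176-36230475, plus strand): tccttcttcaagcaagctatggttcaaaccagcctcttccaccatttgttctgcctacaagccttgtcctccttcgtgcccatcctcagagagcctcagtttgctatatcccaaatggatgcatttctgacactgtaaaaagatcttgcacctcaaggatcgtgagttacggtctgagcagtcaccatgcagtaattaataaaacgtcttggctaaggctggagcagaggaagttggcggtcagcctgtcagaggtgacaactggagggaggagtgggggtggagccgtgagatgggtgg
Ptges (chr2:30903248-30903547, minus strand): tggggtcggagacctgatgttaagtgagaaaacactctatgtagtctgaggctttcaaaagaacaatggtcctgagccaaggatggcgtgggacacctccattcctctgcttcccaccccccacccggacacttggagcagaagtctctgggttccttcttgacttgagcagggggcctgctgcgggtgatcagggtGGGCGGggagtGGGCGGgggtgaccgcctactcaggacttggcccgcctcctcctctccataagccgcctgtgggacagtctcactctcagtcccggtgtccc

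On both strands, 9 motifs were searched: the cyclic AMP response element core TGACGT, the E-box CACGTG, the C/EBP site TTGCNNAA, the GC box GGGCGG, the AP-1 site TGANTCA, the TATA box TATAAA, the antioxidant response element TGACNNNGC, the EGR site GCGNGGGCG and an NF-kappaB site. They were chosen after promoter windows had been seen. Positions count the annotated start as 1 and depend on that annotation, as the start used in these cells was not measured. The Ptgs2 window held the cyclic AMP element on the opposite strand at bases 13 to 18, overlapping an E-box at 17 to 22. It also held a C/EBP match at -69 to -62 and a GC box at -170 to -165. The Ptges window held GC boxes at -53 to -48 and at -42 to -37, and the Ptgs1 window held none of the 9 motifs. Of 32851 mouse promoter windows of this length, 7.51% held the cyclic AMP element, 7.15% the E-box, 10.8% the C/EBP site and 35.66% the GC box. The motifs matched nowhere in these 3 windows were found in 7.81% of windows for AP-1, 13.62% for the TATA box, 12.39% for the antioxidant element, 5.55% for EGR and 8.46% for NF-kappaB. A match is a description of the letters and not a bound site.

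A pair of RNAs on the opposite strand beside Ptgs2 followed it in 4T1 and not in EMT6. They were chosen after their values were seen. Ptgs2os lies on the minus strand and runs away from Ptgs2, with its 5′ end 68 bases before the Ptgs2 start. It stood at 2.19, 3.02 and 2.53 FPKM in 4T1 controls and 1.72, 1.44 and 1.43 in KO (log2 change -0.83 ± 0.14, edgeR adjusted p = 2.45e-05). In EMT6 it stood at 0.97, 0.75 and 0.91 in controls and 1.45, 1.39 and 1.06 in KO (0.58 ± 0.18, adjusted p = 0.0128). Its groups did not overlap in either line, and the change in EMT6 ran against that of Ptgs2. Ptgs2os2, 50.8 kb past Ptgs2, changed by -0.99 ± 0.11 in 4T1 and 0.80 ± 0.08 in EMT6 (edgeR adjusted p = 2.78e-08 and 3.12e-07). The 2 changes differed between the lines by 1.43 ± 0.23 for Ptgs2os and 1.80 ± 0.13 for Ptgs2os2 (adjusted p = 8.47e-06 and 1.92e-12). Of the 6 other genes tested within 500 kb of Ptgs2, these included, 5 were called lower and 0 higher in 4T1, and 1 was called lower and 3 higher in EMT6, counts that were also made after the values were seen and stand beside 28.0% higher and 29.0% lower among all genes in 4T1 and 27.9% and 28.2% in EMT6. The sources used here do not say whether the counting used strand.

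**Figure D3:**
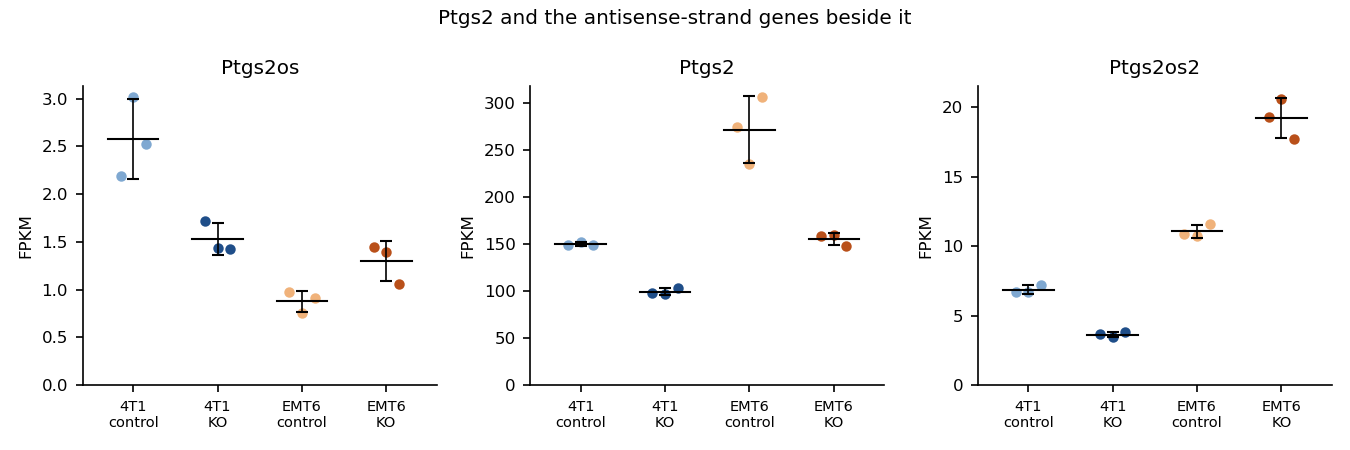
FPKM of Ptgs2os, Ptgs2 and Ptgs2os2 in each library (points) with group mean and SD; each panel has its own axis from 0. All 3 are lower in 4T1 KO than in 4T1 control, while in EMT6 KO Ptgs2 is lower and its 2 neighbours are higher.

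Ptgs1, the other cyclooxygenase, rose in 4T1 KO cells and was slightly lower in EMT6 KO cells. The 4T1 controls gave 6.25, 5.76 and 4.83 FPKM and the KO libraries 14.8, 14.0 and 16.1. The EMT6 controls gave 70.3, 69.4 and 78.1 FPKM and the KO libraries 62.8, 64.9 and 64.1. The groups did not overlap in either line, but the gap was wide in 4T1 and narrow in EMT6, where every library lay above all of 4T1. The log2 change was 1.33 ± 0.08 in 4T1 (2.51-fold, edgeR adjusted p = 1.74e-12) and -0.18 ± 0.06 in EMT6 (adjusted p = 0.0113). The changes differed by -1.50 ± 0.10 (adjusted p = 7.82e-13). The EMT6 call was lost without EMT6 KO replicate 1 (-0.17, adjusted p = 0.0606) and without the filter on low counts (-0.15, adjusted p = 0.0605), in a range of 0.00819 to 0.0606 over the alternatives. Ptgs1 lies on chromosome 2 at 36120438 to 36142284 (plus strand) in the deposited coordinates.

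The balance between the cyclooxygenases, as a ratio of FPKM per library, lay nearer to Ptgs1 in KO than in control in both lines. Ptgs2 over Ptgs1 was 27.1 ± 3.61 in 4T1 controls and 6.65 ± 0.24 in KO (SD, n = 3), and 3.73 ± 0.31 and 2.43 ± 0.11 in EMT6. The summed FPKM of both genes was below the control level in KO, at 114.2 ± 4.78 against 155.9 ± 2.15 in 4T1 and 219.2 ± 6.29 against 344.3 ± 40.1 in EMT6. The groups did not overlap for either measure, and Ptgs2 still made up 86.9% of the sum in 4T1 KO and 70.8% in EMT6 KO. The 2-sided exact permutation p was 0.1 for each of the 8 ratio comparisons, which is the smallest that 3 against 3 libraries can give. These ratios were added after the values were seen.

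Ptges, the inducible terminal synthase that works beside Ptgs2, showed the widest contrast between the lines. In 4T1 it stood at 9.95, 9.65 and 10.5 FPKM in controls and 2.12, 2.31 and 3.22 in KO. In EMT6 it stood at 34.5, 36.9 and 33.4 FPKM in controls and 44.2, 45.1 and 50.1 in KO. All 4T1 KO libraries lay far below their controls and all EMT6 KO libraries above theirs. The log2 change was -2.05 ± 0.11 in 4T1 (4.13-fold lower, edgeR adjusted p = 2.92e-13) and 0.41 ± 0.06 in EMT6 (1.33-fold higher, adjusted p = 3.56e-05), and the changes differed by 2.47 ± 0.13 (adjusted p = 2.11e-13). In EMT6, 11 of the 16 other genes tested within 500 kb of Ptges were called higher and 0 lower (median log2 change 0.32), beside 27.9% higher and 28.2% lower among all genes. In 4T1, 5 of 14 were called higher and 3 lower (median -0.02), beside 28.0% and 29.0%. These counts were added after the values were seen, and the part of the surroundings in the result was not tested.

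Ptges2, a second terminal synthase that is not usually induced, was low in every library. It stood at 3.02, 2.50 and 2.99 FPKM in 4T1 controls and 3.27, 3.41 and 3.69 in KO, and at 4.59, 4.98 and 4.39 in EMT6 controls and 4.69, 4.83 and 4.56 in KO. The 4T1 groups did not overlap and the EMT6 groups did. Neither difference passed the threshold, at 0.21 with a 95% interval of 0.0011 to 0.42 in 4T1 (edgeR adjusted p = 0.0801) and 0.01 with an interval of -0.17 to 0.20 in EMT6 (adjusted p = 0.903). With scaling by total counts alone the 4T1 value was 0.29 and passed (adjusted p = 0.0216, in a range of 0.0216 to 0.304 over the alternatives). Ptges over Ptges2 went from 3.55 ± 0.29 to 0.733 ± 0.12 in 4T1 (SD, n = 3), so that Ptges2 became the more abundant of the pair per length, and from 7.51 ± 0.10 to 9.92 ± 0.92 in EMT6.

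**Figure D4:**
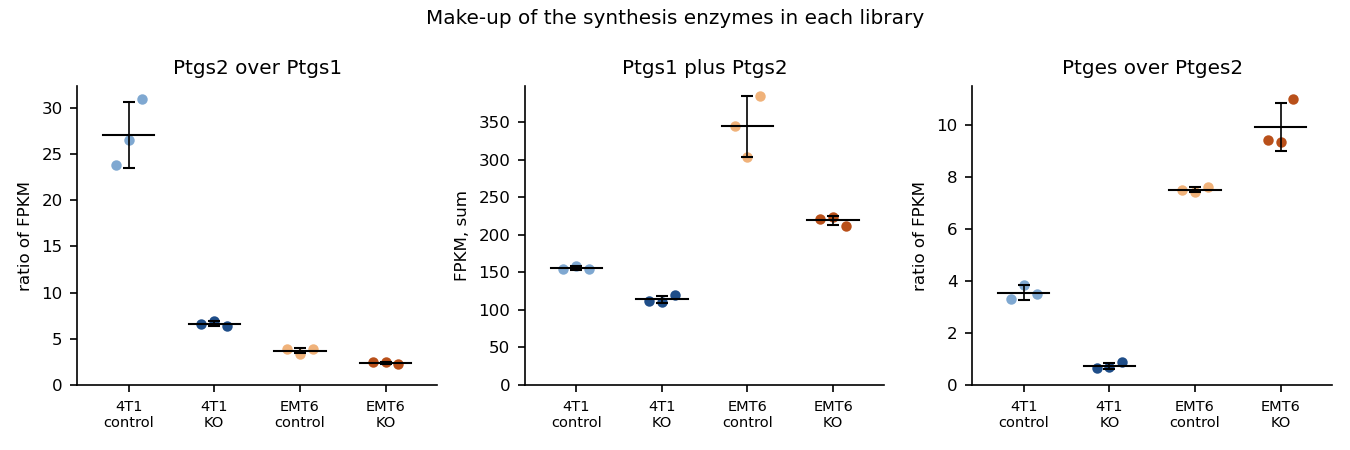
Ratios and sums of FPKM per library (points) for the cyclooxygenases and the terminal synthases, by line and group, with group mean and SD. The mean Ptgs2 to Ptgs1 ratio is 27.1 in control and 6.65 in KO of 4T1 and 3.73 and 2.43 in EMT6, while the Ptges to Ptges2 ratio is lower in KO of 4T1 and higher in KO of EMT6.

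Pla2g4a, the phospholipase that supplies arachidonic acid, was lower in EMT6 KO cells. EMT6 controls gave 34.7, 35.6 and 46.0 FPKM and KO libraries 28.4, 29.0 and 26.7, and 4T1 controls gave 29.0, 28.8 and 28.6 and KO libraries 31.4, 30.5 and 33.0. KO and control did not overlap in either line, with EMT6 control replicate 3 standing above the other EMT6 controls. The log2 change was -0.47 ± 0.10 in EMT6 (edgeR adjusted p = 0.00230) and 0.06 with a 95% interval of -0.04 to 0.15 in 4T1 (adjusted p = 0.289), and the changes differed by -0.52 ± 0.12 (adjusted p = 0.00112). The 4T1 value was 0.14 and passed the threshold with scaling by total counts alone (adjusted p = 0.0108, in a range of 0.0108 to 0.710 over the alternatives). Pla2g4a lies on the same chromosome as Ptgs2, on the minus strand, with its 5′ end 138.7 kb before the Ptgs2 start. All 6 other genes tested within 500 kb of it, Ptgs2 among them, were called lower in 4T1, where Pla2g4a itself was not and 29.0% of all genes were, and 1 was lower and 3 higher in EMT6, where 28.2% and 27.9% of all genes were. This window overlaps that of Ptgs2, so the counts are not separate from those given around Ptgs2. They too were made after the values were seen.

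Breakdown genes split between one that could not be detected and one that was measured. Hpgd, the dehydrogenase that begins inactivation of prostaglandin E2, had 0 counts in 12 of 12 libraries, and 3 counts, the limit that a count of 0 allows, correspond to 0.0902 to 0.130 FPKM across libraries. Ptgr1, a reductase of prostaglandins and leukotriene B4 that acts after the dehydrogenase, stood at 5.85, 5.79 and 5.21 FPKM in 4T1 controls and 11.5, 11.2 and 12.7 in KO. In EMT6 it stood at 10.9, 11.8 and 13.3 in controls and 13.9, 13.8 and 13.3 in KO. The 4T1 groups were far apart, while in EMT6 the highest control nearly met the lowest KO library. The log2 change was 0.99 ± 0.09 in 4T1 (1.99-fold, edgeR adjusted p = 2.87e-09) and 0.19 with a 95% interval of 0.0078 to 0.37 in EMT6 (adjusted p = 0.0710), and the changes differed by -0.80 ± 0.13 (adjusted p = 6.25e-06). The EMT6 value passed without EMT6 control replicate 3 (0.26, adjusted p = 0.0132) and without the filter on low counts (0.22, adjusted p = 0.0476), in a range of 0.0132 to 0.242 over the alternatives.

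Of the receptors, Ptger4 was higher in EMT6 KO cells and Ptger2 was barely detected. Ptger4 stood at 3.73, 3.97 and 3.33 FPKM in EMT6 controls and 6.38, 5.65 and 6.19 in KO, with no overlap. In 4T1 it stood at 0.89, 0.94 and 1.05 in controls and 1.07, 0.93 and 1.30 in KO, which overlapped. The log2 change was 0.73 ± 0.09 in EMT6 (1.66-fold, edgeR adjusted p = 2.65e-06) and 0.11 with a 95% interval of -0.20 to 0.42 in 4T1 (adjusted p = 0.535), where the sign turned without 4T1 KO replicate 3. The changes differed by 0.62 ± 0.17 (adjusted p = 0.00268). Ttc33, on the opposite strand, overlaps Ptger4 and had 6169 counts over the 12 libraries against 4134 for Ptger4, so Ptger4 values are uncertain if the counting ignored strand. Ttc33 itself changed by -0.24 ± 0.10 in EMT6 (adjusted p = 0.0460), opposite to Ptger4. Ptger2 had 0 counts in 10 of 12 libraries and 8 counts in the remaining pair, both EMT6 controls, and 3 counts correspond to 0.0292 to 0.0422 FPKM across libraries. No fold is given for it.

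The difference between the lines was called for 5 of the 7 tested members, Ptgs1, Ptges, Pla2g4a, Ptger4 and Ptgr1, against 53.4% of all 14301 genes tested. Ptgs2 and Ptges2 were not called, and their intervals, -0.31 to 0.07 and -0.46 to 0.09, limit how far the lines could differ.

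The wider pathway was described with 9 lists of 95 genes around the members, of which 59 were tested in 4T1 and 54 in EMT6. In 4T1, 23 were called higher and 17 lower, and in EMT6, 15 higher and 22 lower, beside backgrounds of 57.0% and 56.0% called. Of 4 genes for transport and further breakdown, 0 were higher in either line, and 2 were lower in 4T1 and 3 in EMT6, with median log2 changes of -0.22 and -0.95 against medians of all genes near 0. Slco2a1, the transporter that takes up prostaglandins from outside the cell, stood at 30.9, 33.5 and 28.9 FPKM in 4T1 controls and 17.7, 16.9 and 16.4 in KO, and at 19.6, 17.6 and 19.3 in EMT6 controls and 9.13, 9.31 and 8.18 in KO. Its KO libraries lay below every control in both lines, with log2 changes of -0.95 ± 0.05 and -1.08 ± 0.06 (edgeR adjusted p = 4.88e-12 and 4.54e-10) that differed by -0.12 ± 0.09 (adjusted p = 0.262). Abcc4, an exporter of prostaglandins, stood at 2.35, 2.05 and 2.27 FPKM in EMT6 controls and 0.35, 0.39 and 0.48 in KO (-2.45 ± 0.15, adjusted p = 9.80e-10). In 4T1 it changed by -0.02 ± 0.06 (adjusted p = 0.755), and the lines differed by -2.42 ± 0.14 (adjusted p = 2.99e-14). Ptgr2, which reduces the keto product of prostaglandin E2, changed by -0.35 ± 0.08 and -0.82 ± 0.08 in 4T1 and EMT6 (adjusted p = 4.24e-04 and 5.41e-07).

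Of 11 genes tested for the supply and reacylation of arachidonic acid in 4T1, 5 were called higher and 2 lower, and of 10 tested in EMT6, 7 were higher and 2 lower. Among all genes, 28.0% were higher and 29.0% lower in 4T1, and 27.9% and 28.2% in EMT6. Fads1, the desaturase that forms arachidonic acid, rose by 0.28 ± 0.05 in 4T1 and 0.35 ± 0.05 in EMT6 (edgeR adjusted p = 8.15e-05 and 2.25e-05). Elovl5, Lpcat2 and Mboat7, an elongase and acyltransferases, were also called higher in both lines. Fads2, the first desaturase of the route, stood at 58.2, 60.4 and 43.8 FPKM in EMT6 controls and 113.1, 115.1 and 112.0 in KO (1.07 ± 0.11, adjusted p = 4.83e-05), and changed by -0.03 ± 0.04 in 4T1 (adjusted p = 0.574). Acsl4 and Lpcat3, which activate and reattach arachidonic acid, were lower in 4T1 KO (-0.26 ± 0.05 and -0.39 ± 0.06) and higher in EMT6 KO (0.31 ± 0.05 and 0.23 ± 0.06), and the lines differed for both (adjusted p = 1.42e-07 and 1.22e-06). The pair called lower in EMT6 was Dagla, a lipase that acts on diacylglycerol, and Faah, which hydrolyses anandamide. Dagla stood at 10.6, 7.71 and 8.71 FPKM in EMT6 controls and 4.57, 4.38 and 4.27 in KO, with no overlap (-1.02 ± 0.10, adjusted p = 4.11e-07), and changed by -0.01 ± 0.07 in 4T1 (adjusted p = 0.935). Faah changed by -1.49 ± 0.38 in EMT6 (adjusted p = 0.00329), where its controls stood at 0.19 to 0.25 FPKM. Of the other phospholipases A2, 7 were tested in 4T1, with 2 called higher and 1 lower, and 5 in EMT6, with 1 higher and 2 lower. The 2 lower in EMT6 were Pla2g6 and Pla2g7, which fell by 0.65 ± 0.08 and 0.47 ± 0.07 on the log2 scale, and Pla2g15 was higher in 4T1 by 0.23 ± 0.09 (adjusted p = 0.0339). The 1 higher in EMT6 was Pla2g4c, at 0.17 to 0.22 FPKM in controls and 0.34 to 0.50 in KO (1.00 ± 0.34, adjusted p = 0.0177), named after its values were seen.

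Downstream of the receptors, 13 target genes of cyclic AMP and its factor CREB were tested in 4T1 and 12 in EMT6. Of these, 6 were called higher and 5 lower in 4T1, and 2 higher and 6 lower in EMT6. Among all genes, 28.0% were higher and 29.0% lower in 4T1, and 27.9% and 28.2% in EMT6. Areg, an epidermal growth factor receptor ligand, stood at 75.6, 72.2 and 70.0 FPKM in 4T1 controls and 30.5, 32.3 and 33.6 in KO, and at 138.8, 126.9 and 154.0 in EMT6 controls and 55.4, 60.6 and 45.4 in KO. It fell in both lines with no overlap, by log2 changes of -1.26 ± 0.06 and -1.37 ± 0.10 (edgeR adjusted p = 8.45e-15 and 9.79e-07). Pde4b and Per1, a cyclic AMP phosphodiesterase and a clock gene, rose in 4T1 KO by 0.65 ± 0.07 each and fell in EMT6 KO by 0.49 ± 0.07 and 0.31 ± 0.08. Fos went the other way, at -0.51 ± 0.21 in 4T1 and 1.02 ± 0.25 in EMT6 (adjusted p = 0.0411 and 0.0143). Of 9 proteins that bind AU-rich mRNA, a class to which the Ptgs2 message belongs, 3 were called higher and 5 lower in 4T1, and 3 higher and 2 lower in EMT6. These counts stand beside the same shares of all genes. Zfp36l1, which promotes decay of such messages, fell in both lines, by 0.39 ± 0.06 and 0.39 ± 0.09.

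**Figure D5:**
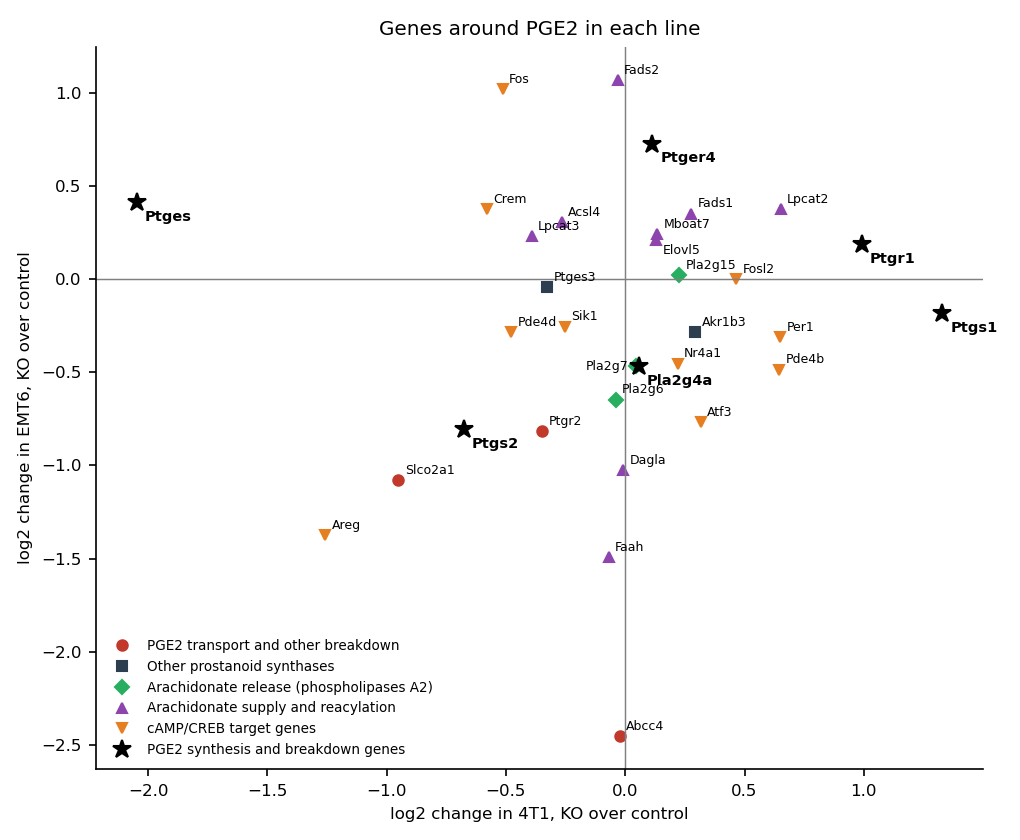
Log2 change in 4T1 (x axis) against that in EMT6 (y axis), KO over control, for 27 genes of 5 wider lists, with 6 members as stars. The 27 genes were tested in both lines, have a mean of at least 1 FPKM in a group and are called in at least 1 line. Ptgs2, Slco2a1, Ptgr2 and Areg lie in the quadrant that is lower in both lines, Ptges stands alone at the left and Abcc4 at the bottom.

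Other prostanoid synthases and receptors gave few measurable genes. The counts below stand beside 28.0% higher and 29.0% lower among all genes in 4T1, and 27.9% and 28.2% in EMT6. Of the other prostanoid synthases, 4 were tested in each line, with 2 higher and 1 lower in 4T1 and 0 higher and 3 lower in EMT6. In EMT6, Cbr3 stood at a mean of 14.2 FPKM in controls and 7.96 in KO, and Ptgis at 1.96 and 0.97. Cbr3 had 0 counts in 4T1. Ptges3, a cytosolic synthase, was the most abundant, at 86.6 to 96.9 FPKM in 4T1 controls and 74.4 to 77.7 in KO (-0.33 ± 0.05, edgeR adjusted p = 2.08e-06), and its value is uncertain because a near-identical copy, Ptges3-ps, could share its reads. A list of 7 other prostanoid receptors and Ptgfrn, a regulator of the prostaglandin F receptor that is not itself a prostanoid receptor, gave 2 tested genes in each line, Ptgfrn and the receptor Ptger1 (EP1). Ptgfrn was higher in both lines, by 0.21 ± 0.04 and 0.24 ± 0.05 (edgeR adjusted p = 4.09e-04 and 0.00108). Ptger1, named after its values were seen, stood at 0.16, 0.13 and 0.12 FPKM in 4T1 controls and 0.35, 0.42 and 0.40 in KO (1.40 ± 0.31, adjusted p = 4.77e-04). In EMT6 it stood at 0.19, 0.20 and 0.20 in controls and 0.13, 0.11 and 0.14 in KO, which did not overlap, and the difference of -0.63 ± 0.35 did not pass the threshold (adjusted p = 0.133). Of the lipoxygenase and leukotriene branch, 1 of 4 tested was higher and 0 lower in 4T1, and 0 of 3 higher and 2 lower in EMT6. Among the stimulatory G protein and adenylyl cyclases, 5 were tested in each line, with 2 higher and 1 lower in 4T1 and 1 higher and 2 lower in EMT6. Gnas, which encodes that G protein subunit, rose by 0.23 ± 0.04 in 4T1 and 0.37 ± 0.05 in EMT6, while the cyclase Adcy6 rose by 0.28 ± 0.06 in 4T1 and fell by 0.69 ± 0.07 in EMT6. The tables' own pathway annotation names 132 genes for arachidonic acid metabolism. Leaving out members, 23 were tested in 4T1 with 6 higher and 8 lower, and 20 in EMT6 with 5 higher and 11 lower. That list was added after the values were seen.

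Genes whose level across the 12 libraries most resembled Ptgs2 or Ptges were named by Pearson's r of log2 CPM among 10478 genes. For Ptgs2 these were Eaf1 (r = 0.991), Tdrd3 (0.990), Sbds (0.989), Frk (0.984) and Srp72 (0.983). For Ptges they were Kdelr2 (0.992), Tatdn2 (0.991), Id3 (0.991), Ubxn8 (0.991) and Mthfd1l (0.991). The 12 libraries fall into 4 groups, so these values describe 4 group levels and their spread. Id3, an inhibitor of helix-loop-helix factors, stood at a mean of 13.3 FPKM in 4T1 controls, 2.85 in 4T1 KO, 65.7 in EMT6 controls and 62.7 in EMT6 KO, with a 4T1 change of -2.30 (edgeR adjusted p = 1.86e-14) beside the -2.05 of Ptges.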

How the data were processed

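The members and gene lists were chosen with earlier results of these data known. The submitters' processing notes name HTSeq 0.6.1, HISAT2 2.2.1, cutadapt 1.9.1, DESeq2 and the genome GRCm38, with no role for any of them. The deposited tables hold raw read counts per gene and FPKM. FPKM recomputed from the deposited counts, totals and exonic lengths matched all 680292 deposited values within 0.0051. Libraries hold 13705612 to 19761604 counts, and 3 counts equal 0.152 to 0.219 CPM. These floors cover counting error only.

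Counts were tested with edgeR 4.0.16 (R 4.3.3) by its robust quasi-likelihood test after filterByExpr and TMM scaling, within each line for KO against control and over all 12 libraries for the difference between lines and between controls. P-values were Benjamini-Hochberg adjusted over all tested genes and called under 0.05. Standard errors came from the fit. Ratios of FPKM, neighbourhood counts, the neighbouring antisense genes, the motifs and the tables' own pathway list were added after values were seen. The 9 members and Nedd4 were named, and list genes where a group's mean reached 1 FPKM and at least 1 line gave a call. Alternatives were DESeq2 1.42.0, limma-voom 3.58.1, other scalings, no filter, a replicate block, a joint fit and each library left out. The fits were tested on simulated data.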

Additional observations from a re-analysis of the deposited data

Results flagged for a closer look

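For 5 members the KO effect differed between the lines by edgeR's quasi-likelihood test of the difference itself (12 libraries, 3 per group). As EMT6 minus 4T1 on the log2 scale, the difference was -1.50 for Ptgs1, 2.47 for Ptges, -0.52 for Pla2g4a, 0.62 for Ptger4 and -0.80 for Ptgr1. The adjusted p was 7.82e-13, 2.11e-13, 0.00112, 0.00268 and 6.25e-06 in that order. For Ptgs1 and Ptges the 3 KO libraries lay on opposite sides of their controls in the lines. The test of the difference called 53.4% of all genes tested. Of the 12006 genes tested in both lines, 19.6% were called in opposite directions. Groups of 3 libraries were not tested for outlying samples.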

How the results depend on the processing

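Over 28 member changes, 434 alternative values were computed: 423 kept their direction and side of the threshold, 2 were no longer called, 5 became called and 4 changed sign. The sign changes were all of differences that were not called: 4T1 Ptger4 at -0.022 without 4T1 KO replicate 3, and EMT6 Ptges2 at -0.0002 without EMT6 control replicate 1, -0.036 without EMT6 control replicate 3 and -0.012 without EMT6 KO replicate 2. Over all libraries left out, 4T1 Ptger4 ranged from -0.022 to 0.218 and EMT6 Ptges2 from -0.036 to 0.077. Members called ranged from 4 to 6 in 4T1, 4 to 6 in EMT6, 5 to 6 for the difference between lines and 7 to 7 between controls, and the 7 values that crossed the threshold are given beside their genes. With the replicate block, 4, 5, 5 and 7 members were called in the 4 comparisons, as without it. Replicate numbers did not pair the samples: same-numbered libraries correlated at -0.027, 0.045 and 0.097 in 4T1 and at -0.15, -0.08 and -0.139 in EMT6, and 1 of 6 pairs correlated best with its own number. Scaling by total counts alone moved the share of called 4T1 genes that were higher from 49.1% to 61.2%, and the share for the difference between lines from 50.2% to 42.0%. Without the low-count filter the share of all genes called was 29.9% in 4T1 and 31.0% in EMT6, from 26210 and 23721 genes. At this depth Hpgd and Ptger2 could not be compared, and low genes such as Ptger4 in 4T1 carry wide intervals.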
